A study of Homo sapiens with 6 samples.

Results

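The MCM family of mRNAs was examined in a native RNA immunoprecipitation sequencing (RIP-seq) experiment on ORC1, the largest subunit of the origin recognition complex (ORC). Members were the 9 genes MCM2 to MCM10 by symbol, of 23013 genes in the deposited table, and all 9 passed the filter on low values (16513 genes tested). The samples were nuclear lysates of untreated, asynchronous HCT116 cells, a single human colorectal cancer cell line. Input libraries (3) held RNA of the lysate without antibody, and ORC1 IP libraries (3) held RNA recovered with an antibody against endogenous ORC1, without crosslinking. The labels number inputs and IPs as RIP replicates 1 to 3, and the methods describe them as triplicate experiments, so p-values measure the spread between these 3 experiments in 1 cell line. No library from a control antibody was analysed here.

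MCM proteins are the helicases of DNA replication. MCM2 to MCM7 form a ring of 6 different subunits that is loaded on origins by ORC, CDC6 and CDT1, and that unwinds the fork once CDC45 and the GINS complex have joined it. MCM8 and MCM9 form a separate complex that acts in homologous recombination and mismatch repair, and MCM10, which is not a helicase, helps to activate the loaded ring and links it to DNA polymerase alpha. The genes of the ring are classic targets of E2F transcription factors and rise at the entry into the S phase. The question addressed by the comparison was whether the RNAs of this family came down with ORC1 relative to nuclear RNA.

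Promoter sequences are shown because E2F sites are a known feature of the ring genes, and their part in the values of these libraries was not tested. RefSeq start site windows (GRCh38.p14, 250 bases before to 50 after a start) were matched for 7 members, and MCM4 and MCM5 were not matched. An E2F-type motif, spelled TTTCCCGC, TTTCGCGC, TTTGCCGC or TTTGGCGC and searched on both strands with overlaps allowed, was in the windows of MCM2, MCM3, MCM6, MCM7 and MCM8, that is in 5 of 7 members, and in 3.31% of all 35116 windows. The count of members is per gene, whereas 3.31% is per window. The 7 members had 9 windows, and some of the windows of MCM7 held no match. The windows of MCM9 and MCM10 held none of these letters. A match is a description of the sequence and not a bound site. The matches are printed 5′ to 3′ on the strand of the gene, with the motif in capitals. Capitals of 12 bases mark a match on each strand that overlap, and GCGGGAAA or GCGCCAAA is a match on the opposite strand.
MCM2, beginning 2 bases after the start site, chr3:127598404-127598433 (+): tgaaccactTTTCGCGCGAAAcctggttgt
MCM3, 4 bases before the start site, chr6:52284730-52284755 (-): ttcggaagtTTTCGCGCcggggtgga
MCM3, 174 bases before the start site, chr6:52284900-52284925 (-): gatggtacgTTTCCCGCcaccgcggg
MCM6, 90 bases before the start site, chr2:135876513-135876542 (-): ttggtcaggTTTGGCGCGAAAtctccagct
MCM6, 152 bases before the start site, chr2:135876575-135876604 (-): ggctttgcaTTTGGCGCGAAAtccctttcc
MCM7, 9 bases before the start site, chr7:100101390-100101415 (-): ggggcgacgTTTCGCGCcaatttcgg
MCM7, 187 bases before the start site, chr7:100101568-100101593 (-): gctcggaccGCGGGAAAcccggcgcc
MCM8, 26 bases after the start site, chr20:5950669-5950694 (+): atcactgaaGCGCCAAAaaagaattt

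Tandem GAA repeats are shown because the study examined them as a feature of RNAs found with ORC1. The longest transcript of each gene in GENCODE v44 was searched on the sense strand. Every one of the 9 members held GAAGAA at least once, as did 79.1% of the 16062 tested genes with a transcript, and matches per transcript numbered from 2 (MCM2) to 13 (MCM10). A run of at least 3 GAA units was found in 5 members, MCM3, MCM4, MCM6, MCM8 and MCM10, and in 12.9% of tested genes. Longer transcripts have more room for a match, and the longest transcripts of the members measured 3085 (MCM7) to 7592 (MCM9) nt against a median of 3283 nt over tested genes. The longest run is printed in capitals for 4 members. That of MCM3 belongs to its longest transcript in GENCODE v44 (3208 nt). By position it lies between the motif matches of MCM3 printed above, before the RefSeq start site. An MCM3 transcript that begins at that site would not hold this run.
MCM3, at the first base of the transcript in the 5′ UTR, chr6:52284864-52284881 (-): GAAGAAGAAGAAgctttt
MCM6, coding, across an exon junction, chr2:135844677-135846249 (-): aaggtgGAAGAAGAAgaggac
MCM8, outside the coding sequence, chr20:5996724-5996744 (+): ttttcaGAAGAAGAAgttcca
MCM10, coding exon, chr10:13171167-13171187 (+): acagatGAAGAAGAAgttccc

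Depth was high for every member. Reads recovered on genes totalled 13703033 to 17248924 in inputs and 25134156 to 36008733 in ORC1 IPs, and a member had between 456 reads (MCM9) and 44659 reads (MCM3) in a library, so counting error was small beside the spread between libraries. The cells carried the epithelial keratins and adhesion genes of their label: 7 of 8 colonic epithelium markers had a value, with 47785 to 138549 normalised counts summed in inputs and 16799 to 145253 in ORC1 IPs, and VIL1 was at most 6.30. Of 6 markers of other cells 3 had a value, with 167 to 302 summed in inputs and 434 to 790 in ORC1 IPs, nearly all of it COL1A1. ORC1 IP 2 stood apart from ORC1 IPs 1 and 3, so results are also given without it. These are the difference of each member, and the difference or the adjusted p of each tested list gene that is named.

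No MCM mRNA passed the test of ORC1 IP against input (limma, p adjusted by Benjamini-Hochberg over all tested genes, threshold 0.05), whereas 2.28% of tested genes were higher and 1.42% were lower. In limma the count was also 0 at an unadjusted p under 0.05, against 21.6% of tested genes. In edgeR and DESeq2 on recovered reads it was 0 at an adjusted p under 0.05, and unadjusted p-values were not counted there. The study's own cutoff, a log2 fold change over 1 with a p-value under 0.05 in DESeq2, was not applied here. In DESeq2 on recovered reads MCM10 was over that fold change (1.66, adjusted p = 0.0516), and MCM3 followed at 0.97. An unadjusted p cannot exceed the adjusted one, so the count of 0 does not show that MCM10 would miss the study's cutoff. Called genes numbered 376 higher and 234 lower, and 87 higher and 96 lower with total count scaling, which moved the median log2 difference of all tested genes from 0.01 to -0.19. On that scale MCM6 was at -0.08, above the median, and no other member changed sign. In deposited normalised counts most members were above the inputs in ORC1 IPs 1 and 3, and in ORC1 IP 2 those of the ring and MCM10 were below them. The 9 members had a median log2 difference of 0.44 and MCM2 to MCM7 one of -0.04, beside 0.01 over all tested genes. Differences are ORC1 IP minus input on the log2(normalised count + 1) scale, and a normalised count is a read count divided by 1 size factor per library.

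MCM2 (ENSG00000073111, chromosome 3, 127598410 to 127622436, plus strand of GRCh38), a subunit of the ring that forms its gate with MCM5 and binds histones at the fork, had 8229, 20962 and 14981 normalised counts in inputs, given here and below by replicate number from 1 to 3, against 18781, 3405 and 19616 in ORC1 IPs. ORC1 IPs 1 and 3 lay within the range of the inputs and ORC1 IP 2 lay below it. The log2 difference was -0.35 ± 0.78 (SE, n = 3; limma adjusted p = 0.843), with a 95% interval of -2.04 to 1.34, and it was 0.48 without ORC1 IP 2. MCM3 (ENSG00000112118, chromosome 6, 52264014 to 52284881, minus strand), a ring subunit that contacts the loading factors, had 8416, 19139 and 13200 in inputs and 51421, 4763 and 25341 in ORC1 IPs. ORC1 IP 1 was 10.8 times ORC1 IP 2, the widest spread of any member within ORC1 IPs. Its log2 difference was 0.52 ± 0.88 (SE, n = 3; limma adjusted p = 0.784).

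MCM4 (ENSG00000104738, chromosome 8, 47960185 to 47978160, plus strand), which with MCM6 and MCM7 makes up the helicase core, had 11999, 9368 and 9233 normalised counts in inputs and 19763, 6204 and 22201 in ORC1 IPs. Here ORC1 IPs 1 and 3 lay above all inputs and ORC1 IP 2 below all of them, which gave a log2 difference of 0.46 ± 0.67 (SE, n = 3; limma adjusted p = 0.739). MCM6 (ENSG00000076003, chromosome 2, 135839626 to 135876443, minus strand) had 6208, 8720 and 6005 in inputs and 11766, 2308 and 15935 in ORC1 IPs. The arrangement was that of MCM4, and the log2 difference was 0.14 ± 0.69 (SE, n = 3; limma adjusted p = 0.934), with a sign that changed under scaling by total count (-0.08). MCM7 (ENSG00000166508, chromosome 7, 100092233 to 100101940, minus strand) had 13570, 30168 and 22683 in inputs and 32229, 6449 and 28220 in ORC1 IPs. Its inputs were spread over 2.22-fold, and ORC1 IP 3 fell between inputs 2 and 3. The log2 difference of MCM7 was -0.22 ± 0.83 (SE, n = 3; limma adjusted p = 0.910).

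MCM5 (ENSG00000100297, chromosome 22, 35400134 to 35425431, plus strand), the partner of MCM2 at the gate of the ring, had the most negative difference of the family. It had 6738, 15443 and 13035 normalised counts in inputs and 8999, 3246 and 8878 in ORC1 IPs, and ORC1 IPs 1 and 3 lay between input 1 and the other two. The log2 difference was -0.80 ± 0.61 (SE, n = 3; limma adjusted p = 0.489), with a 95% interval of -2.13 to 0.54, and it was -0.31 ± 0.42 (SE; limma adjusted p = 0.653) without ORC1 IP 2. Scaled to a common library total, MCM5 had 370, 715 and 678 CPM in inputs and 298, 222 and 331 CPM in ORC1 IPs. On that scale all ORC1 IPs were below all inputs, which was so for 15.2% of tested genes, and the test with total count scaling did not pass (log2 difference -1.01, limma adjusted p = 0.223).

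**Figure D1:**
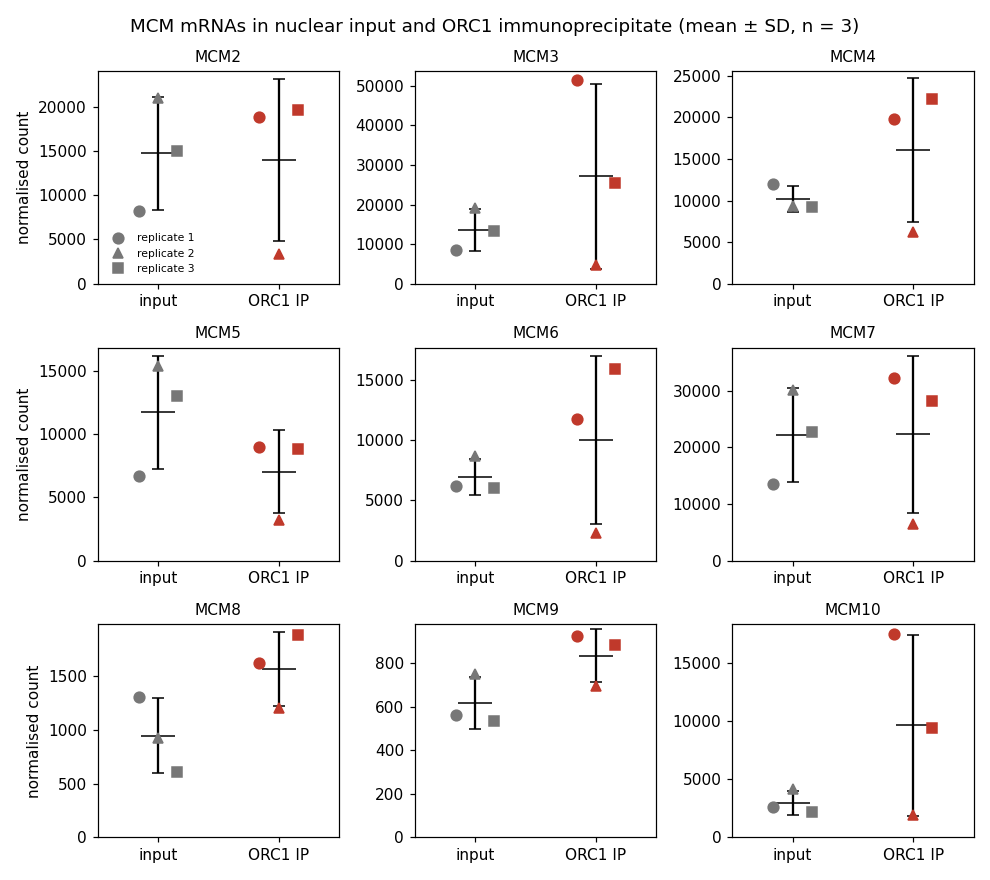
Normalised counts of the 9 MCM mRNAs (vertical axes, linear and starting at 0) in 3 inputs (grey) and 3 ORC1 IPs (red), with bars for the mean ± SD and a symbol for each replicate number. ORC1 IP 2, the red triangle, is the lowest of the 6 libraries for MCM2 to MCM7 and MCM10, but not for MCM8 and MCM9.

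MCM8 and MCM9, the pair outside the ring, were the least abundant members and the least spread within ORC1 IPs. MCM8 (ENSG00000125885, chromosome 20, 5950652 to 5998977, plus strand) had 1309, 922 and 610 normalised counts in inputs and 1626, 1201 and 1883 in ORC1 IPs. The groups overlapped only through input 1 and ORC1 IP 2, and the log2 difference was 0.77 ± 0.39 (SE, n = 3; limma adjusted p = 0.273), with a 95% interval of -0.07 to 1.61. It was 0.35 once GC content and length of the transcript were corrected for. MCM9 (ENSG00000111877, chromosome 6, 118813442 to 118935162, minus strand) had 562, 750 and 534 in inputs and 921, 695 and 882 in ORC1 IPs, with the overlap coming from input 2 and ORC1 IP 2. Its log2 difference was 0.44 ± 0.34 (SE, n = 3; limma adjusted p = 0.481) and changed sign under that correction (-0.10). In GENCODE v44, ASF1A lies within MCM9 on the opposite strand, and MCM8-AS1 overlaps MCM8, so part of the reads of both genes is uncertain because the use of strand in counting is not given.

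MCM10 (ENSG00000065328, chromosome 10, 13161558 to 13211110, plus strand), the activator of the ring, had the largest positive difference. Inputs had 2633, 4134 and 2178 normalised counts, against 17532, 1951 and 9428 in ORC1 IPs. In these counts ORC1 IPs 1 and 3 were above every input, whereas ORC1 IP 2 was below every input. In CPM, ORC1 IPs 1 and 3 were again above every input, but ORC1 IP 2 (134) lay between inputs 3 (113) and 1 (145). The log2 difference was 1.26 ± 0.70 (SE, n = 3; limma adjusted p = 0.322), with a 95% interval of -0.25 to 2.76. Adjusted p-values of MCM10 were 0.0516 in DESeq2 (log2 difference 1.66) and 0.153 in edgeR (1.68), both on recovered reads. In limma with the replicate block the adjusted p was 0.368.

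Leaving out ORC1 IP 2 changed this account for 2 members. MCM10 was then called higher, with a log2 difference of 2.16 ± 0.40 (SE; 2 ORC1 IPs against 3 inputs; limma adjusted p = 0.00284), and so was MCM3, with 1.49 ± 0.47 (SE; limma adjusted p = 0.0426). Without that library 11.9% of tested genes were called higher and 6.38% lower. MCM4 (1.05, 0.0699), MCM6 (0.99, 0.0806) and MCM8 (0.95, 0.0856) did not pass, with the log2 difference and limma adjusted p in parentheses, and neither did MCM9 (0.57, 0.250), MCM7 (0.52, 0.458), MCM2 (0.48, 0.488) and MCM5 (-0.31, 0.653). In normalised counts both ORC1 IPs 1 and 3 lay above all 3 inputs for 6 of 9 members, MCM3, MCM4, MCM6, MCM8, MCM9 and MCM10, against 26% of tested genes. In CPM, ORC1 IP 1 was below an input for MCM4, MCM6, MCM8 and MCM9. Leaving out any other single library gave 0 called members.

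**Figure D2:**
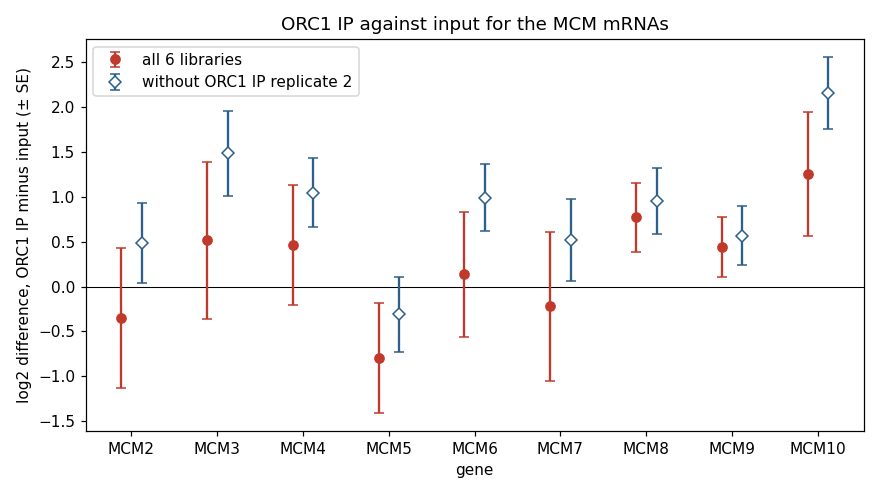
Log2 difference of ORC1 IP minus input for each MCM mRNA (vertical axis, error bars SE) with all 6 libraries (red circles) and without ORC1 IP 2 (blue diamonds). The difference of MCM10 was 1.26 with all libraries and 2.16 without ORC1 IP 2, and that of MCM5 was negative in both.

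The replicates of the labels did not give the family a shared direction. In replicate 1 all 9 members were higher in the IP than in the input of the same number (49.8% of tested genes), from a log2 value of 0.31 for MCM8 to 2.74 for MCM10. In replicate 3 it was 8 of 9 (52.1% of tested genes), with MCM5 at -0.55 and MCM10 again the highest at 2.11. In replicate 2 it was the reverse, and 8 of 9 members were lower in the IP (49.7% of tested genes), from -2.62 for MCM2 to -0.11 for MCM9, with MCM8 alone above 0 at 0.38. These directions rest on the numbers of the labels, and across genes the deviations of input 2 from its group mean followed those of ORC1 IP 1 (r 0.497) more than those of input 1 did (-0.322). Set against input 2, ORC1 IP 1 was lower for MCM2 and MCM5. ORC1 IP 2 was the lowest of all 6 libraries for 7 members, MCM2 to MCM7 and MCM10, and for 25.7% of tested genes. For these 7 it held between 0.181 (MCM2) and 0.366 (MCM5) of the lower of ORC1 IPs 1 and 3, compared with 0.739 for MCM8 and 0.788 for MCM9. These comparisons rest on the size factors, under which all counts summed to 30181927, 14592514 and 26836037 in ORC1 IPs 1 to 3. In CPM, MCM2 to MCM7 were still lowest in ORC1 IP 2, with MCM5 at 222 against 298 and 331 in ORC1 IPs 1 and 3. MCM10 (134) was not lowest there, and MCM8 (82.3) and MCM9 (47.6) were highest there of all libraries. In normalised counts ORC1 IP 2 was also the lowest library for 5 of 6 tested colonic epithelium markers, whose part in the MCM values was not tested. Values of such bulk samples, in inputs or ORC1 IPs, do not show how many cells held an RNA or how much each held.

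Levels relative to the MCM2 to MCM7 mean of the same library were then compared, since these do not depend on the scaling between libraries. MCM10 lay at -1.74, -1.93 and -2.48 on the log2 scale in inputs, against -0.19, -1.08 and -0.995 in ORC1 IPs. It was the member whose groups did not overlap on this measure, a rise from -2.05 ± 0.38 to -0.76 ± 0.49 (SD, n = 3), and ORC1 IP 2 was then on the side of the other ORC1 IPs. Of all tested genes, 5.92% had all ORC1 IPs above all inputs relative to the same mean, and 8.31% had groups without overlap in either direction. The measure is built from members and was not tested. MCM5 moved the other way, from -0.39, -0.03 and 0.10 in inputs to -1.16, -0.34 and -1.08 in ORC1 IPs, and these ranges overlapped between input 1 and ORC1 IP 2.

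Within the ring the order of subunits varied between ORC1 IPs. MCM7 was the highest and MCM6 the lowest of MCM2 to MCM7 in all 3 inputs, by log2 ranges of 1.13, 1.79 and 1.92. In ORC1 IPs 1 and 3 the lowest was MCM5, and in ORC1 IP 1 the highest was MCM3, at 1.36 above the mean, for a range of 2.51. ORC1 IP 2 had the same ends as the inputs, MCM6 and MCM7, with a range of 1.48, and MCM7 was also the highest in ORC1 IP 3. MCM8, MCM9 and MCM10 together lay -2.82, -3.47 and -3.77 from the ring in inputs and -2.75, -1.81 and -2.91 in ORC1 IPs. The difference between groups of this contrast was 0.86, or 0.52 without ORC1 IP 2, beside an SD of 0.48 in inputs and 0.60 in ORC1 IPs. In ORC1 IP 2 the relative level of MCM8 (-1.78) and MCM9 (-2.56) was the highest of all libraries.

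**Figure D3:**
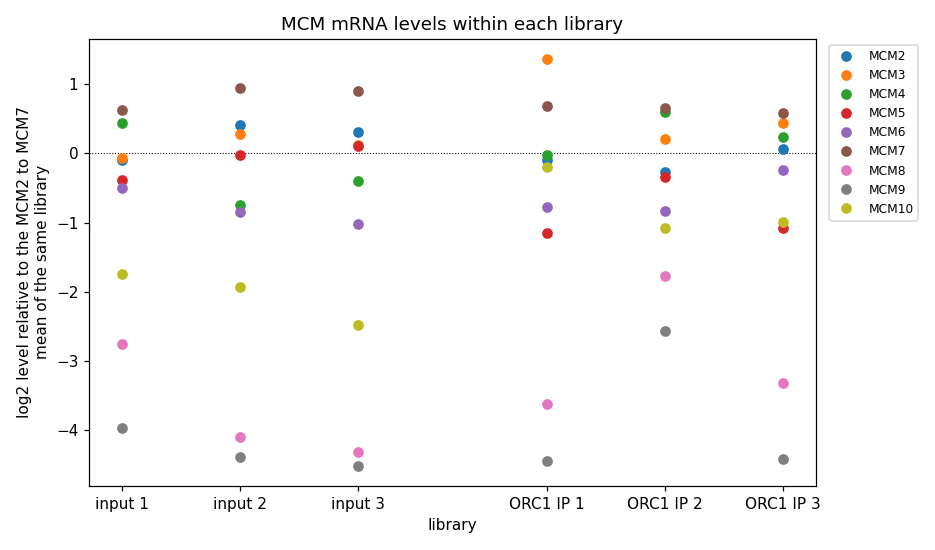
Log2 level of each MCM mRNA relative to the mean of MCM2 to MCM7 in the same library (vertical axis) for the 6 libraries (horizontal axis). MCM10 lies between -2.48 and -1.74 in inputs and between -1.08 and -0.19 in ORC1 IPs, while the values of the other members overlap between the groups.

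Levels between members were compared per kilobase of the longest transcript. In inputs MCM7 had 7177 ± 2694 normalised counts per kilobase (SD, n = 3), followed by MCM2 with 4288 ± 1855, MCM3 with 4235 ± 1675, MCM5 with 2552 ± 977, MCM4 with 1874 ± 287 and MCM6 with 1859 ± 403. Neighbours in this order from MCM7 to MCM6 had overlapping ranges over the 3 inputs. A range takes in variation that the members of a library share, so the overlap does not show whether neighbours differed within a library. Some more distant members did not overlap with this length. Every input of MCM7 was above every input of MCM5, MCM4 and MCM6. Every input of MCM2 and MCM3 was above every input of MCM4 and MCM6. Part of this was lost with the coding length. The lowest input of MCM7 (6291) was then below the highest of MCM5 (7013). The lowest inputs of MCM2 (3034) and MCM3 (3472) were then below the highest of MCM4 (4635) and MCM6 (3540). With all exons merged, MCM2 (lowest 1745) overlapped with MCM6 (highest 2109). MCM10 followed with 650 ± 223 per kilobase and MCM8 with 127 ± 46.8, and each of these steps was without overlap. MCM9, at 81.1 ± 15.5, overlapped with MCM8. In ORC1 IPs the level per kilobase was 2101 ± 1699 for MCM10, 210 ± 46.0 for MCM8 and 110 ± 15.9 for MCM9 (SD, n = 3). With the coding length in place of the transcript length, MCM2 and MCM3 exchanged places. MCM9 then no longer overlapped with MCM8, nor MCM6 with MCM4.

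The inputs themselves differed for the family. MCM2, MCM3, MCM5 and MCM7, whose longest transcripts had 51.6% to 57.6% GC, were lowest in input 1 and highest in input 2, with the highest input 2.22 to 2.55 times the lowest. MCM4, with 46.9% GC, and MCM8 were highest in input 1. MCM6 (43.2% GC), MCM10 (43.3%) and MCM9 (37.6%) were highest in input 2 as well. The median GC content of tested genes was 48.1%. The part of GC content in the level of single members was not tested beyond the correction named above, after which the log2 difference was 1.03 for MCM10, 0.55 for MCM3 and -0.83 for MCM5, and none was called. The 5 members with a run of at least 3 GAA units had log2 differences from 0.14 to 1.26, and the other 4 had -0.80 (MCM5), -0.35 (MCM2), -0.22 (MCM7) and 0.44 (MCM9), of which none passed. MCM6, the lowest of the 5, was at -0.02 after the correction, and MCM9 was at -0.10. No such split was made over all tested genes, and the part of GAA runs in these values was not tested.

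Genes whose profile was most like the ring were listed by Pearson r of log2 values with the mean profile of MCM2 to MCM7 over the 6 libraries. They were GAK (r 1.000), ANXA2P2 (0.998), EIF3B (0.997), ENSG00000234160 (0.996) and EFTUD2 (0.996), of 11397 genes with a mean of at least 100. Among these genes 6.11% had an r over 0.9, and the points share library depth and scaling, so r is a description. GAK, a kinase of clathrin uncoating, had 2454, 3704 and 3129 normalised counts in inputs and 4428, 1473 and 4291 in ORC1 IPs. ANXA2P2 is a pseudogene near-identical to ANXA2 and its counts are uncertain. Against the other ring subunits, the r of single members was highest for MCM7 (0.980) and MCM2 (0.964) and lowest for MCM8 (0.204) and MCM9 (0.501). MCM6 (0.939) and MCM3 (0.895) lay between these, and MCM10 (0.779) was above the subunits MCM4 (0.743) and MCM5 (0.733).

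The partners that load and activate the ring were described next. Of 28 genes of this list, 28 were tested, 0 were called in limma and 7 had an unadjusted p under 0.05 (21.6% of all tested genes), and 16 were positive with a median log2 difference of 0.26. The highest was CLSPN, the checkpoint mediator Claspin, with 2086, 1303 and 783 normalised counts in inputs and 12642, 2064 and 5575 in ORC1 IPs. Only input 1 and ORC1 IP 2 met, and the log2 difference of CLSPN was 2.03 ± 0.61 (SE, n = 3; limma adjusted p = 0.0805). CLSPN passed in limma with the replicate block (0.0475) and without ORC1 IP 2 (0.00157), and in DESeq2 (adjusted p = 0.00336). The lowest was GINS2, a subunit of the GINS complex, with 1526, 2088 and 2327 in inputs and 953, 1079 and 1184 in ORC1 IPs. Its groups did not overlap, as for 26.3% of tested genes, and its log2 difference was -0.87 ± 0.35 (SE, n = 3; limma adjusted p = 0.173), or -0.88 without ORC1 IP 2 (limma adjusted p = 0.0843). ORC1 IP 2 was the lowest library for 10 of the 28 partners.

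Among 9 partners of MCM8 and MCM9 in recombination, 2 were called higher and 0 lower (2.28% and 1.42% of all tested genes), 3 were positive, and the median log2 difference was -0.60. RAD50, the coiled-coil subunit of the complex that resects broken ends, had 1309, 914 and 495 normalised counts in inputs and 6353, 2542 and 4698 in ORC1 IPs, a log2 difference of 2.33 ± 0.47 (SE, n = 3; limma adjusted p = 0.0239). MRE11A, the nuclease of the same complex, had 166, 188 and 109 in inputs and 535, 412 and 476 in ORC1 IPs, a log2 difference of 1.65 ± 0.36 (SE, n = 3; limma adjusted p = 0.0323). For both genes every ORC1 IP was above every input, and 26.3% of tested genes had groups without overlap in either direction. Both stayed called without ORC1 IP 2 (limma adjusted p of 0.00108 for RAD50 and 0.00624 for MRE11A). Both lost the call with the GC and length correction (0.0554 for RAD50 and 0.0934 for MRE11A), without the intensity trend (0.0561 and 0.0657) and without input 3 (0.214 and 0.245), input 2 (0.0831 and 0.0928) or ORC1 IP 3 (0.0798 and 0.0969). MRE11A also lost it without input 1 (0.0517), without ORC1 IP 1 (0.0778) and with total count scaling (0.142). RPA2, a subunit of the single-strand binding protein, had the lowest log2 difference of the list at -1.15 ± 0.39 (SE, n = 3; limma adjusted p = 0.109), or -0.94 without ORC1 IP 2 (limma adjusted p = 0.0740). In DESeq2 RPA2 passed as lower (adjusted p = 0.0370).

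Of 24 E2F-regulated S phase genes, 24 were tested, 0 were called in limma, 5 had an unadjusted p under 0.05 (21.6% of all tested genes) and 8 were positive, with a median log2 difference of -0.16. ORC1 IP 2 was the lowest library for 12 of them. The largest difference was that of RFC1, the large subunit of the clamp loader, with 3115, 1822 and 1423 normalised counts in inputs and 15042, 3194 and 12732 in ORC1 IPs (log2 difference 2.08 ± 0.60, SE, n = 3; limma adjusted p = 0.0723). Every ORC1 IP was above every input, and groups without overlap in either direction were found for 26.3% of tested genes. At the other end TK1, thymidine kinase, had 8649, 12567 and 14968 in inputs and 3467, 3661 and 4519 in ORC1 IPs, a log2 difference of -1.61 ± 0.50 (SE, n = 3; limma adjusted p = 0.0880) with every ORC1 IP below every input. Without ORC1 IP 2 both passed, RFC1 at an adjusted p of 0.000806 and TK1 at 0.0118 (limma). In DESeq2 they passed as well (0.00141 and 0.000980).

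**Figure D4:**
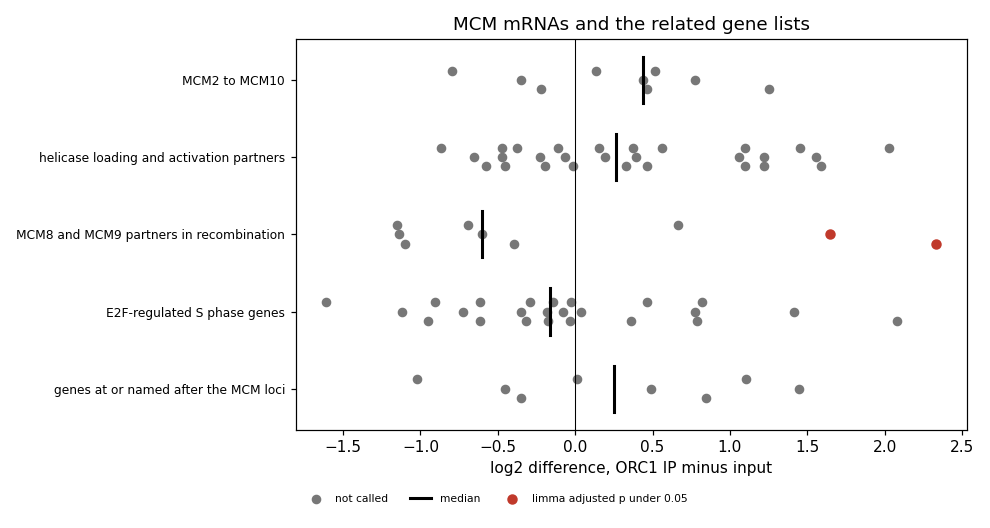
Log2 difference of ORC1 IP minus input (horizontal axis) for single genes (points) of the MCM family and 4 related lists, with the median of each list as a bar and genes at a limma adjusted p under 0.05 in red. RAD50 and MRE11A are the genes called, and the MCM mRNAs lie between -0.80 and 1.26.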

How the data were processed

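Native RIP-seq libraries of HCT116 nuclei were prepared by the authors from total RNA depleted of ribosomal RNA, with a stranded kit. Per the methods and labels, reads were trimmed with Trimmomatic, aligned with STAR to hg19 (GRCh37), filtered for GL contigs and counted per Ensembl gene with featureCounts. Whether counting used strand, and how it treated reads matching several genes, was not stated in the sources available. The authors deposited a signal for each library, its gene counts over 1 size factor, and 100% of values were whole multiples of the smallest nonzero value within 0.001, so reads were recovered. The authors' deposited table also holds their own comparison, with log2 fold changes, standard errors, a Wald score and p-values, and the authors' mean signal, none of which was used.

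Log2(normalised count + 1) was tested with limma 3.58.1 (trend, 3 against 3, no block) for 16513 genes with a mean of at least 10, with Benjamini-Hochberg adjustment over all of them and 0.05 as threshold. Reads were tested with edgeR 4.0.16 and DESeq2 1.42.0 under R 4.3.3. Tests were checked on simulated data. Intervals of differences are 95% intervals from limma. Gene positions, lengths and GC content came from GENCODE v44 (GRCh38) by Ensembl identifier (97.3% of tested genes matched), promoters from RefSeq, and no hg19 annotation was used. Named genes were all members, the called genes of each list and its highest and lowest, and 5 genes with the profile most like MCM2 to MCM7. The members and lists were chosen with earlier results of these data known.

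The pairing of inputs with IPs comes from the labels, which number them by RIP replicate. After subtraction of group means, pairs 1, 2 and 3 correlated across genes at -0.322, -0.240 and 0.215, and input 2 with ORC1 IP 1 at 0.497, so the numbers of inputs 1 and 2 are uncertain and the labels were used as given. Alternatives were a pseudocount of 0.5 or 5, a filter at 50 or none, total count, TMM and upper quartile scaling, edgeR, DESeq2, no trend, the replicate block, a correction for GC content and length, and each library left out. Alternatives added after seeing the data were edgeR with the block and a length of merged exons.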

Additional observations from a re-analysis of the deposited data

How the results depend on the processing

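Of 171 values of single MCM mRNAs under alternatives, 160 kept direction and side of the threshold, 2 passed it (MCM3 and MCM10 without ORC1 IP 2) and 9 changed sign, none of them called. The sign changes were those of MCM6 with total count scaling (-0.0774) and with the GC and length correction (-0.0239), of MCM9 with that correction (-0.10), and of values with a library left out, which ranged from -0.78 to 0.48 for MCM2, -0.23 to 1.49 for MCM3, -0.40 to 0.99 for MCM6 and -0.64 to 0.52 for MCM7. Members called numbered 0 in every alternative but the one without ORC1 IP 2, which gave 2 higher.

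All genes called numbered 376 higher and 234 lower, and 2 genes of the 4 related lists. Total count scaling gave 87, 96 and 1, DESeq2 1266, 718 and 11, limma without trend 143, 96 and 0, and the GC and length correction 154, 69 and 0. Upper quartile scaling gave 4 list genes. Leaving out a library gave 6 to 1965 higher genes, 23 to 1053 lower genes and 0 to 20 list genes. Higher genes were fewest without input 3, and all 3 counts were highest without ORC1 IP 2. With the replicate block 433 genes were higher and 191 lower, 0 members were called, in limma and in edgeR, and among the other genes named CLSPN gained a call (0.0475). The order by level per kilobase kept 7 members at their rank with coding length and 4 with merged exons. The cause of these changes was not tested. Members had at least 456 reads in each library, and their 95% intervals spanned 1.46 (MCM9) to 3.81 (MCM3) on the log2 scale.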

Other observations

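Genes at or named after the MCM loci formed a list of 12, of which 8 were tested and 0 were called in limma, with 1 at an unadjusted p under 0.05. TRMT6, a tRNA methyltransferase gene divergent from MCM8, had the highest log2 difference, 1.45 ± 0.51 (SE, n = 3; limma adjusted p = 0.119), with 540, 355 and 293 normalised counts in inputs and 2248, 475 and 1070 in ORC1 IPs. ASF1A, a histone chaperone gene within MCM9 on the opposite strand, had the lowest, -1.02 ± 0.50 (SE, n = 3; limma adjusted p = 0.262), with 549, 249 and 214 in inputs and 105, 304 and 108 in ORC1 IPs. Without ORC1 IP 2 both passed (limma adjusted p of 0.00398 and 0.0253). So did PRKDC (0.00913) and MCM3AP (0.0123), and the other tested genes of the list did not. TRMT6 also passed in DESeq2 with all libraries (adjusted p = 0.0250). PRKDC and MIR25 were chosen after their values were seen. PRKDC, the kinase gene that starts next to MCM4, had 24831, 43995 and 25090 in inputs and 100750, 12902 and 208653 in ORC1 IPs. The arrangement was that of MCM4, with both other ORC1 IPs above all inputs and ORC1 IP 2 below them. The log2 difference of PRKDC was 1.10 ± 1.21 (SE, n = 3) with a limma adjusted p of 0.378, and it was 2.27 without ORC1 IP 2. MIR25, a miRNA gene within MCM7, had 1.06 to 11.03 normalised counts in inputs and 2.98 to 8.06 in ORC1 IPs and was below the filter.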
